A study of Mus musculus with 80 samples.

Results

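Amino acid transporters of the mouse liver were followed through the day and through a fast. They were taken as the genes whose symbol places them in the solute carrier (SLC) families SLC1, SLC3, SLC6, SLC7, SLC36, SLC38 and SLC43 and that had at least 10 counts in at least 4 of the 80 libraries. Of 61 such symbols among 78275 listed genes, 37 met the count rule, and all 37 were among the 21187 genes tested for an effect of fasting. The 24 symbols that did not meet it included Slc7a11, the light chain of the cystine/glutamate exchanger, whose highest value in any library was 8 counts. In 22 of the 24 no library reached 10 counts, and the closest to entering were Slc1a7 and Slc7a10, both with a highest value of 14 counts.

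The mice were C57BL/6J males and females, 8 to 12 weeks old, kept under 12 h of light and 12 h of dark for 10 days and released into constant darkness on day 11. Control mice had chow throughout, and fasted mice had none from circadian time (CT) 10, so the fasted libraries of CT8 were taken before food removal and serve as a check of the labels. A piece from the centre of the left liver lobe was collected every 4 h from CT8 to CT44, and poly(A) RNA was sequenced from 2 males and 2 females per treatment and time. The mice carried no transgene or induced mutation by the labels, and the same mice were not followed over time; each library stands for a separate sample, and the mean effect of fasting below covers CT12 to CT44, with 36 libraries per treatment.

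Total counts per library ranged from 25534901 to 59927771 with a median of 42303883, and the 37 transporters held 0.329% to 0.964% of them. Hepatocyte markers, among them Alb and Apoa1, were summed in CPM (counts scaled to a common library size) over the libraries of CT12 to CT44. The sums were 67493 to 115938 CPM in control libraries and 82222 to 136595 in fasted ones, so the labelled tissue was met in each of these. The libraries of CT8 were not summed. Genes fixed as checks of the treatment labels, the lipogenic Srebf1 and Fasn, the gluconeogenic Pck1 and the fasting hormone Fgf21, ran as the sample titles say, with a mean log2 difference of -3.13 for Srebf1, -2.86 for Fasn, 1.80 for Pck1 and 3.95 for Fgf21, and the fasted and control libraries of these 4 genes did not overlap at 8 or 9 of the 9 times from CT12 on. The second female control library of CT8 stood apart, with 31.3% of its counts on ribosomal RNA genes against a median of 0.101% over all libraries, and the second female fasted library of CT40 was the next least similar to its group, with a correlation of 0.955 to the mean of the other 3 libraries. Transporter calls that were lost without either library are given below with their values without it. In whole liver, fewer cells of a type and less RNA per cell cannot be told apart.

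Amino acids cross membranes through carriers that differ in what drives them. System A and system N carriers of the SLC38 family are coupled to sodium and bring small neutral amino acids and glutamine into hepatocytes, where alanine and glutamine feed gluconeogenesis and the urea cycle. SLC7 proteins either act alone on cationic amino acids or form the light chain of a dimer whose heavy chain is an SLC3 protein, and these dimers exchange amino acids across the membrane. SLC1 carriers handle glutamate or exchange small neutral amino acids, SLC6 carriers use sodium and chloride for glycine, taurine, betaine, creatine and related substrates, and SLC36 carriers use protons and sit in part on lysosomes. The liver takes up amino acids released by muscle during a fast, so the families bear on how that uptake is set by feeding and by time of day.

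Promoter windows from RefSeq (GRCm38.p6), 250 bases before to 50 bases after a start, were found for 27 of the 37 members. They were searched on both strands for 4 fixed motifs. The C/EBP-ATF response element core TGATGNAA, bound by ATF4, was in windows of Slc1a4, Slc6a21 and Slc7a7, 3 of 27 members against 4.51% of all genes with a window. The Slc6a21 window lies inside that gene as GENCODE M21 (GRCm38) draws it, with its start 5.36 kb into the gene. The E-box CACGTG, bound by the clock proteins CLOCK and BMAL1 and by the lysosomal regulator TFEB, was in windows of Slc36a1, Slc38a7, Slc43a1 and Slc6a16, 4 of 27 members against 8.09% of all genes. The D-box TTATGTAA and the forkhead motif GTAAACA were in no member window, against 1.11% and 4.05% of all genes. Of these windows, 4 are shown for members whose values are described below, 5′ to 3′ on the gene's strand with the motif in capitals: Slc1a4 at chr11:20332664-20332963 (minus strand, motif read on the other strand, starting 4 bases before the start), Slc36a1 at chr11:55204090-55204389 (plus strand, with E-boxes 31 and 3 bases before the start), Slc6a16 at chr7:45240503-45240802 (plus strand, E-box 40 bases before the start) and Slc43a1 at chr2:84840073-84840372 (plus strand, E-box 64 bases before the start, which lies 1.47 kb inside the gene as GENCODE M21 draws it).
Slc1a4: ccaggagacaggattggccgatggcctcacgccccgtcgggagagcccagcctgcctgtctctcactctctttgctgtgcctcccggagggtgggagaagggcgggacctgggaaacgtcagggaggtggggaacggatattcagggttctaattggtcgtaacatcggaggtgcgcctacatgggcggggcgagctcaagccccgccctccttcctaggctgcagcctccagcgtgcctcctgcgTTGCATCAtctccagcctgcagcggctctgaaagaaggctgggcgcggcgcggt
Slc36a1: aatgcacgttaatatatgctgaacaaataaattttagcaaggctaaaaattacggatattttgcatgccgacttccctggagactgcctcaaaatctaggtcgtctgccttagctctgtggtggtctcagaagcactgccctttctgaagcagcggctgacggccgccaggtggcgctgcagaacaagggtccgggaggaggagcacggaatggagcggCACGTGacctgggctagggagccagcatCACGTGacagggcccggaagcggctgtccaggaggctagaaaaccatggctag
Slc6a16: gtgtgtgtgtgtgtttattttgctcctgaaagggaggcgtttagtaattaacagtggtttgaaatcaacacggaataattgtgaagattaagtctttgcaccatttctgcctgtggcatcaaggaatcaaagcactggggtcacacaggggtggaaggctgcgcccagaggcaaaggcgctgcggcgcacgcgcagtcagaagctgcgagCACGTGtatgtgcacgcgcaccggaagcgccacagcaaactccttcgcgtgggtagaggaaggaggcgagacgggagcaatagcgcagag
Slc43a1: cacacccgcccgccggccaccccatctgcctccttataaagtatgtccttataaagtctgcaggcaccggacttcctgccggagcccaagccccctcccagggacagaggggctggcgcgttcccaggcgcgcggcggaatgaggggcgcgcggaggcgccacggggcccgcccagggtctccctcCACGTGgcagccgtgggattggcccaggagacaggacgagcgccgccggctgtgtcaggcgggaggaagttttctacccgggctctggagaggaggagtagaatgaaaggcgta
A match is a description of letters, and binding was not measured.

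Levels can be compared between genes only per length, and here they are given as CPM per kilobase of exon. In control libraries from CT12 to CT44 the highest median was that of Slc38a3, the system N glutamine and histidine carrier SNAT3, at 330.0, ahead of Slc38a4, the system A carrier SNAT4, at 247. Slc6a13, the GABA and taurine carrier GAT2, followed at 76.3, then Slc7a2, the cationic amino acid transporter CAT2, at 58.2, and Slc6a12, the betaine/GABA carrier, at 31.2. The order spans more than 4 powers of 10 between Slc38a3 and Slc6a19, the least abundant member at 0.0139. Slc38a3, Slc38a4 and Slc6a13, the 3 highest in controls, together held 73.2% of the summed level per kilobase in control libraries and 66.8% in fasted ones. In fasted libraries Slc7a2, at a median of 161, was above Slc6a13, at 53.6, so 66.8% is not the share of the 3 highest there.

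Fasting changed the top of that order. Slc38a4 was above Slc38a3 per kilobase in 8 of 36 control libraries and in 32 of 36 fasted libraries, and Slc7a2 was above Slc6a13 in 13 of 36 control and in all 36 fasted libraries. Lower down, Slc6a9 was above Slc36a1 in 10 of 36 control and 32 of 36 fasted libraries, and Slc1a4 was above Slc7a7 in 24 of 36 control and 9 of 36 fasted libraries. Neighbours whose order was mixed within a treatment, such as Slc38a2 and Slc3a2 with 18 of 36 control libraries each way, do not stand apart beyond their spread.

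**Figure D1:**
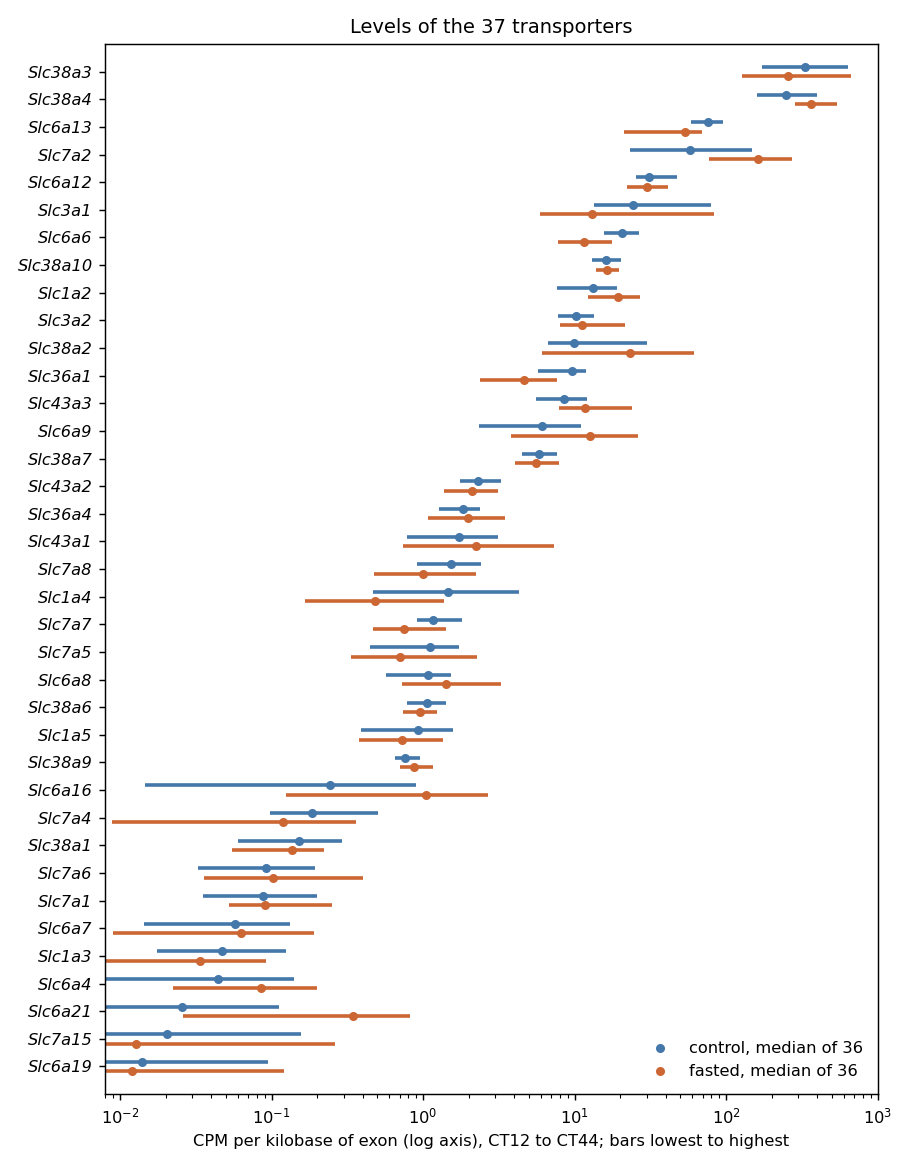
Level of each of the 37 transporters in CPM per kilobase of exon on a log axis, with the median of 36 control (blue) or fasted (orange) libraries of CT12 to CT44 as a point and the lowest to highest library as a bar, bars of the rarest members being cut at the left edge. Slc38a3 leads in control and Slc38a4 in fasted libraries, and the bars of most neighbours overlap.

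The first comparison asked which transporters differ between fasted and control mice over CT12 to CT44. Of the 37, 29 (78.4%) passed the test, against 62.5% of all genes tested, so a fasting effect was common in the whole liver and the share of transporters is to be read against that. Among them 14 rose, against a background of 29.5% of genes that rose, and 15 fell, against 32.9% that fell. The median size of the difference without its sign was 0.49 on the log2 scale for the transporters and 0.27 for all genes, while the signed medians were -0.05 and -0.02. Differences are fasted minus control, from edgeR's quasi-likelihood test with Benjamini-Hochberg adjustment over all genes tested, with the standard error (SE) of the log2 difference.

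**Figure D2:**
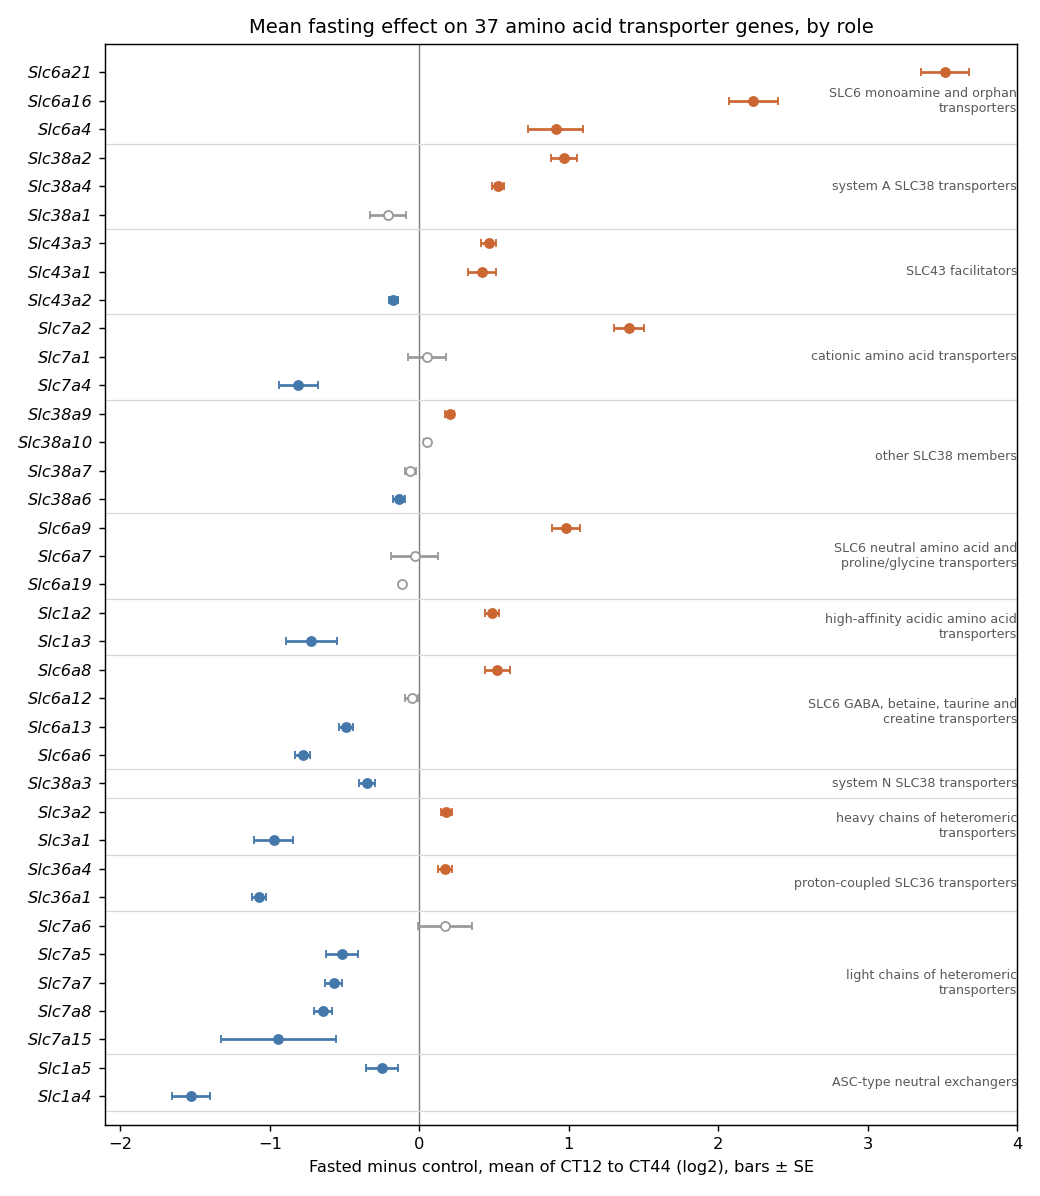
Mean log2 difference, fasted minus control, over CT12 to CT44 for the 37 transporters grouped by role, with bars of 1 SE where an SE could be estimated; Slc6a19 has none because some of its groups are at 0. Filled points passed the test, orange for the 14 that rose and blue for the 15 that fell, with Slc6a21 highest at 3.52 and Slc1a4 lowest at -1.53.

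Most system A carriers rose. Of the 3 members, Slc38a2 and Slc38a4 rose and Slc38a1 did not pass the test, with a log2 difference of -0.21 (adjusted p = 0.121). Without the second female control library of CT8, which read high for Slc38a1 and shares the estimate of spread, the difference was -0.20 and passed (adjusted p = 0.0194). Slc38a2, the carrier SNAT2, is known to be induced when amino acids are scarce. Libraries are listed here and below in the order male 1, male 2, female 1, female 2. At CT16, after 6 h without food, Slc38a2 read 94.2, 71.4, 78.96 and 66.7 CPM in control and 209, 314, 294 and 331 CPM in fasted libraries. The groups did not overlap, with a log2 difference of 1.88 ± 0.27 (SE, adjusted p = 7.11e-07). Over CT12 to CT44 its difference was 0.97 ± 0.09 (adjusted p = 2.32e-13), and all 4 fasted libraries were above all 4 control libraries at 5 of 9 times. It did not pass at CT28, where the means were 103 ± 35.3 CPM in control and 80.9 ± 23.5 CPM in fasted libraries (SD, n = 4).

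Slc38a4, which is abundant in hepatocytes, rose by less but at more times. Its mean log2 difference was 0.53 ± 0.04 (adjusted p = 1.57e-15), and fasted libraries lay above all control libraries at 7 of 9 times. At CT40, after 30 h without food, it read 952, 875, 709 and 862 CPM in control and 1639, 1685, 1574 and 1975 CPM in fasted libraries, a log2 difference of 1.02 ± 0.12 (adjusted p = 5.45e-09) that was 0.93 without the second female fasted library of CT40. At CT28 and CT32 the groups overlapped, with means of 1564 ± 131 and 1613 ± 155 CPM at CT32 (SD, n = 4).

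The system N carrier moved the other way. Slc38a3 fell by 0.35 on the log2 scale over CT12 to CT44 (adjusted p = 1.00e-07), and the fall came at CT20, CT28, CT32 and CT36. At CT32 it read 3078, 2615, 2318 and 3234 CPM in control and 1650.5, 1573, 1498 and 1575 CPM in fasted libraries, a log2 difference of -0.84 ± 0.16 (adjusted p = 9.67e-05). Every control library was above every fasted one there. At CT40 the means were 1411 ± 183 and 1405 ± 85.7 CPM (SD, n = 4), within 1 SD of each other. The 4 remaining SLC38 members changed little. Slc38a9, the lysosomal arginine sensor for the growth kinase mTORC1, rose by 0.20 (adjusted p = 2.84e-08). Slc38a6 fell by 0.14 (adjusted p = 0.00174), a call that was lost in males alone. Slc38a7 did not pass, but did in females alone. Slc38a10 missed narrowly, with a log2 difference of 0.05 (adjusted p = 0.0508). It passed with limma, the DESeq2 Wald test, DESeq2 size factors or upper-quartile scaling, and in females alone.

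Among the cationic amino acid transporters Slc7a2 had a large rise. CAT2 imports arginine, lysine and ornithine, and arginine and ornithine are intermediates of the urea cycle. At CT24 its level was 265, 325, 264 and 211 CPM in control and 1397, 710.0, 1586 and 1003 CPM in fasted libraries. At CT40 it was 383, 296, 256 and 285 CPM in control and 1596, 1750.5, 1414 and 2396 CPM in fasted libraries. All fasted libraries were above all control libraries at both times and at 8 of 9 times in all. The log2 difference was 2.56 ± 0.31 at CT40 (adjusted p = 5.82e-09), 2.34 without the second female fasted library of CT40, and 1.40 ± 0.10 over CT12 to CT44 (adjusted p = 8.90e-17), a fold of 2.65. Slc7a1, the CAT1 carrier of most other tissues, was near 1 CPM in both treatments, with medians of 1.02 and 1.04 CPM, and did not pass. Slc7a4 fell by 0.81 (adjusted p = 5.50e-07) at medians of 0.769 and 0.491 CPM.

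Of the SLC1 exchangers of small neutral amino acids, Slc1a4 passed as lower at 6 of 9 times, and Slc1a5 passed narrowly. Slc1a4, the ASCT1 exchanger of serine, alanine and cysteine, read 6.59, 6.48, 12.5 and 7.65 CPM in control and 1.77, 2.13, 1.000 and 1.04 CPM in fasted libraries at CT20. The groups stood far apart there, with a log2 difference of -2.52 ± 0.39 (adjusted p = 1.12e-06). Its mean log2 difference was -1.53 ± 0.13 (adjusted p = 1.43e-14), and all fasted libraries were below all control libraries at 6 of 9 times. Slc1a5, the glutamine exchanger ASCT2, fell by 0.25 (adjusted p = 0.0428) and passed at a single time, CT20, with 6.54, 4.55, 6.25 and 6.01 CPM in control and 2.88, 3.82, 3.56 and 2.98 CPM in fasted libraries. Its mean difference no longer passed with limma (adjusted p = 0.0802), with DESeq2 size factors (0.0534) or upper-quartile scaling (0.0543), in females alone (0.316) or without male replicate 1 (0.338) or 2 (0.103). The glutamate carriers of the same family went apart: Slc1a2, the GLT-1 carrier that hepatocytes near the central vein express, rose by a log2 of 0.48 (adjusted p = 2.03e-12), while Slc1a3, at medians of 0.403 and 0.289 CPM, fell by 0.72 (adjusted p = 0.000273). At CT20 Slc1a2 read 113, 162, 101 and 139 CPM in control and 276, 268, 250.1 and 239 CPM in fasted libraries.

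Of the 5 light chains of dimeric exchangers 4 fell and none rose, where 32.9% of all genes tested fell, and Slc7a6 was the member that did not pass. The calls of Slc7a15 and Slc7a5 depend on the setting as given below. Slc7a15 met the count rule through its control libraries, since fewer than 4 fasted libraries had at least 10 counts. Slc7a8 (LAT2), a light chain for neutral amino acids, fell by 0.64 on the log2 scale (adjusted p = 1.72e-12), and at CT20 it read 7.73, 8.28, 9.63 and 7.85 CPM in control and 3.14, 3.52, 3.25 and 4.32 CPM in fasted libraries. Slc7a7, the y+LAT1 light chain that carries cationic amino acids out of cells, fell by 0.57 (adjusted p = 3.45e-12) and lay below all control libraries at 7 of 9 times. Slc7a5, the large neutral amino acid light chain LAT1, fell by 0.52 (adjusted p = 3.10e-05), with 4.16, 5.15, 4.28 and 5.49 CPM in control and 1.57, 1.24, 4.34 and 2.27 CPM in fasted libraries at CT44, where fasted female 1 lay inside the control range. In females alone its difference was -0.26 and did not pass (adjusted p = 0.177), and with the CT8 difference subtracted it was 0.19 (adjusted p = 0.763). That subtraction takes in the second female control library of CT8, which read 16.8 CPM for Slc7a5 against 2.97 to 4.98 CPM in the other control libraries of CT8. Slc7a15 fell by 0.94 (adjusted p = 0.0323) on few counts, since 5 of 40 control and 2 of 40 fasted libraries had at least 10, and it did not pass with limma (adjusted p = 0.0669), the DESeq2 Wald test (adjusted p = 0.0865), in males alone (adjusted p = 0.593), or without male replicate 2 or either female replicate.

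The heavy chains differed. Slc3a2, the CD98 heavy chain, partner of Slc7a5, Slc7a7 and Slc7a8, rose by a log2 of 0.18 (adjusted p = 1.18e-05), and its groups overlapped at all 9 times. Slc3a1, the rBAT heavy chain of the cystine and dibasic amino acid transporter, fell by 0.98 ± 0.13 (adjusted p = 1.42e-08). At CT20 Slc3a1 read 176, 85.2, 152 and 80.01 CPM in control and 34.8, 29.5, 18.9 and 30.3 CPM in fasted libraries, a log2 difference of -2.13 ± 0.41 (adjusted p = 4.32e-05). Slc7a9, a known light chain of Slc3a1, was among the 24 symbols below the count rule. Slc3a1 overlaps Prepl on the other strand in GENCODE M21 (GRCm38), and protein-coding genes lie likewise against Slc7a7 (Oxa1l), Slc6a9 (Ccdc24 and B4galt2), Slc7a4 (P2rx6) and Slc7a5 (Gm20388); the strand setting of the counting was not given in the sources used here.

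The lysosomal and proton-coupled carriers also parted. Slc36a1, PAT1, which moves small amino acids out of lysosomes, had the smallest p of all 37 for the mean effect. At CT20 it read 56.4, 58.4, 63.3 and 57.2 CPM in control and 17.9, 14.1, 16.2 and 18.8 CPM in fasted libraries. The ranges of both groups were narrow and far apart, and the log2 difference was -1.81 ± 0.14 (adjusted p = 9.22e-14). Over CT12 to CT44 it fell by 1.07 ± 0.05 (adjusted p = 3.22e-24), a control level 2.10 times the fasted one, with all fasted libraries below all control libraries at 8 of 9 times. Slc36a4 rose by 0.17 (adjusted p = 0.0015), and its groups overlapped at every time.

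Within SLC6 the glycine carrier rose and the taurine carrier fell. Slc6a9, GlyT1, which takes up glycine, read 20.9, 31.05, 11.96 and 21.6 CPM in control and 108, 114, 106 and 135 CPM in fasted libraries at CT20, so the lowest fasted library was more than 3 times the highest control library. The log2 difference at CT20 was 2.47 ± 0.29 (adjusted p = 2.34e-09), and the mean over CT12 to CT44 was 0.98 ± 0.09 (adjusted p = 5.66e-13). At CT32 the means were 41.2 ± 10.2 and 39.7 ± 11.5 CPM (SD, n = 4). Slc6a6, the taurine carrier TauT, fell by 0.78 ± 0.05 (adjusted p = 4.91e-18), and at CT20 it read 206, 172, 225 and 193 CPM in control and 87.2, 84.2, 65.7 and 81.03 CPM in fasted libraries.

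The creatine carrier Slc6a8 rose by a log2 of 0.52 ± 0.08 (adjusted p = 3.49e-07). Its clearest time was CT28, with 4.72, 6.63, 3.72 and 5.84 CPM in control and 9.69, 8.85, 10.7 and 9.62 CPM in fasted libraries. Slc6a13 fell by 0.49 (adjusted p = 2.32e-12), with medians of 221 CPM in control and 156 CPM in fasted libraries. Its neighbour on chromosome 6, Slc6a12, 5.3 kb away on the same strand, did not pass, with medians of 95.2 and 92.2 CPM. Slc6a7, the proline carrier, and Slc6a19, the neutral amino acid carrier B0AT1 of gut and kidney, did not pass and stayed below 1 CPM in every library of CT12 to CT44.

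Slc6a16 and Slc6a21, orphan members of SLC6 with no settled substrate, lie next to each other on chromosome 7, 4.1 kb apart on the same strand, and both rose. Slc6a21 was near the floor in controls, with at least 10 counts in 5 of 40 control libraries, while Slc6a16 reached that in 33 of 40. Slc6a16 read 0.140, 0.643, 0.0862 and 0.111 CPM in control and 4.05, 3.47, 2.999 and 2.98 CPM in fasted libraries at CT20, a log2 difference of 4.08 ± 0.55 (adjusted p = 6.75e-08). Its mean log2 difference was 2.24 ± 0.16 (adjusted p = 1.58e-16). Slc6a21, which falls under the mean of 1 CPM set for members with values by time and was described after its values were seen, read 0.0734, 0.0429, 0.129 and 0.0868 CPM in control and 2.71, 2.66, 2.65 and 3.17 CPM in fasted libraries at CT44, a log2 difference of 5.10 ± 0.46 (adjusted p = 3.58e-12). Fasted libraries of Slc6a21 lay above all control libraries at 8 of 9 times, and its summed counts were 203 over 40 control and 1970 over 40 fasted libraries, so these folds rest on few control counts. Slc6a4, the serotonin carrier, rose by 0.91 (adjusted p = 2.93e-05) at medians of 0.202 and 0.384 CPM.

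The SLC43 facilitators carry large neutral amino acids, apart from Slc43a3, which carries purine nucleobases. Slc43a1 (LAT3) rose by a log2 of 0.42 (adjusted p = 0.000135) and Slc43a3 by 0.46 (adjusted p = 1.42e-11), while Slc43a2 (LAT4) fell by 0.17 (adjusted p = 6.51e-06). At CT44 Slc43a1 read 7.63, 6.31, 8.46 and 10.1 CPM in control and 8.98, 16.7, 26.7 and 15.9 CPM in fasted libraries, with 1 fasted library inside the control range. At CT20 Slc43a3 read 30.8, 38.6, 24.7 and 39.4 CPM in control and 55.5, 60.97, 63.96 and 55.00 CPM in fasted libraries, and the groups did not overlap.

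Members that share a promoter motif did not all share a direction. Of the 3 with the TGATGNAA core, Slc1a4 and Slc7a7 fell and Slc6a21 rose. Of the 4 with the E-box named above, Slc36a1 fell, Slc43a1 and Slc6a16 rose, and Slc38a7 did not pass. The windows of Slc6a21 and Slc43a1 lie inside their genes as GENCODE M21 draws them. Whether a motif bears on the direction was not tested.

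The second comparison asked at which times the transporters differed. Before food removal, at CT8, 3 of 37 passed (1.33% of all genes), all lower in the libraries labelled fasted: Slc38a1, Slc7a1 and Slc7a6. All 3 rest on the second female control library, since Slc38a1 read 2.07, 2.80, 3.30 and 44.4 CPM, Slc7a1 1.07, 1.38, 1.44 and 15.04 CPM and Slc7a6 0.481, 0.511, 0.572 and 11.4 CPM in the control libraries of CT8. Without that library none of the 37 passed, and the log2 differences became -0.05, -0.13 and -0.61.

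At CT12, 2 h into the fast, 2 transporters passed (1.6% of all genes), Slc38a4 with a log2 difference of 0.54 (adjusted p = 0.0107) and Slc7a2 with 1.18 (adjusted p = 0.0264). Both also passed at CT16, CT20, CT24, CT36, CT40 and CT44 and at neither CT28 nor CT32, and both CT12 calls were lost without either male replicate or female replicate 2. At CT16, 8 had risen and 4 had fallen, 12 in all (23.4% of all genes). At CT20 the number was 21 (36.6% of all genes), with 9 higher and 12 lower. It was 17 at CT24 (24.1% of all genes) and 13 at CT28 (21% of all genes). At CT32, 22 h into the fast, it came down to 6 (17.7% of all genes), with Slc6a21 and Slc43a3 higher and Slc36a1, Slc38a3, Slc43a2 and Slc7a7 lower. It was 12 at CT36 (26.8% of all genes), 20 at CT40 (39.9% of all genes) and 19 at CT44 (39.4% of all genes). The share of transporters called followed that of all genes, with the low point of both after CT20 at CT32. Without the second female fasted library of CT40, which shares the estimate of spread with the other times, 10 passed at CT32. At CT40 the calls of Slc38a9 (log2 difference 0.33, and 0.21 without that library), Slc3a2 (0.37 and 0.12), Slc43a3 (0.61 and 0.34) and Slc6a8 (0.66 and 0.26) were lost without it, and Slc1a5 (-1.04) and Slc7a5 (-1.08) then passed.

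**Figure D3:**
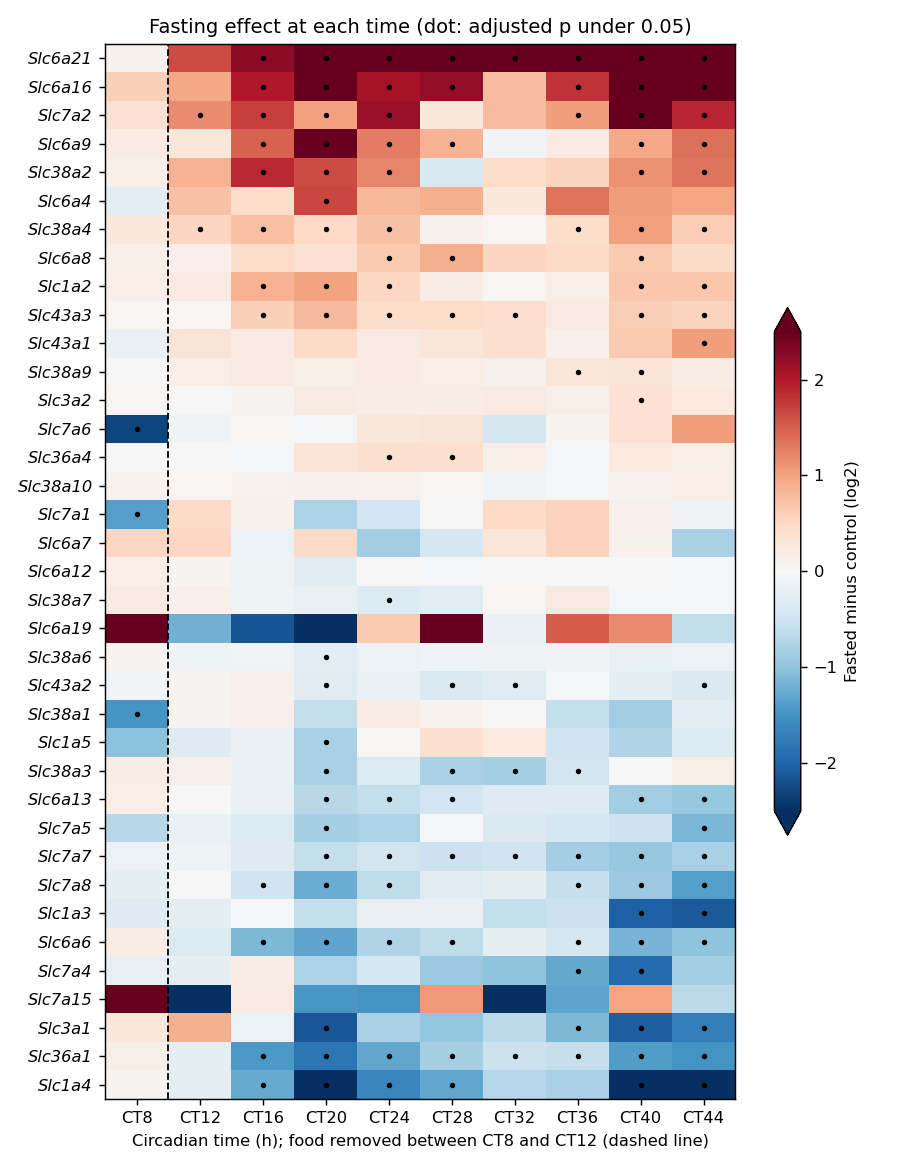
Log2 difference, fasted minus control, for the 37 transporters (rows, ordered by mean effect) at each circadian time from CT8 to CT44 (columns), in colour from blue (lower in fasted) to red (higher in fasted), with a dot where the adjusted p was under 0.05 and the colour scale ending at 2.5 in size. Dots are dense at CT20, CT40 and CT44, sparse at CT32, and limited to Slc38a1, Slc7a1 and Slc7a6 at CT8.

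Size followed the same course. The median size of the log2 difference without its sign was 0.80 for the transporters at CT20 (0.41 for all genes), 0.33 at CT32 (0.29 for all genes) and 0.87 at CT40 (0.44 for all genes). Of the 29 transporters that passed for the mean effect, 23 had a larger difference at CT20 than at CT32 and 26 a larger one at CT40 than at CT32. These counts were not made over all genes, whose median size ran the same way. The 29 were also chosen by a mean that includes these times, so the counts cannot be read as particular to the transporters. The summed CPM of the 37 transporters was 3821 ± 346 in control and 6142 ± 571 in fasted libraries at CT40 (SD, n = 4), and 6678 ± 628 and 6188 ± 293 at CT32. Slc38a3, Slc38a4 and Slc7a2 held 60.1% to 84.2% of that sum, so it mostly reports these 3 genes.

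Slc6a21 climbed through the fast instead. Its mean fasted level was 0.220 CPM at CT12, 1.13 CPM at CT24 and 2.79 CPM at CT44, while the highest control library of CT12 to CT44 was at 0.432 CPM. It passed at all 8 times from CT16 on.

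The third comparison asked whether the transporters cycle with a period of 24 h and whether fasting changes the cycle. In the 40 control libraries 21 of 37 had a 24 h rhythm (41.8% of all genes tested), of which 14 peaked from CT6 to CT15 and 5 from CT20 to CT24. Slc38a3 had the smallest p, with a log2 peak-to-trough range of 1.30 and a peak at CT9.3 (adjusted p = 2.95e-10). Slc38a2 (range 1.17, peak CT9.5, adjusted p = 4.08e-08), Slc6a9 (range 1.01, peak CT10.9, adjusted p = 7.03e-07) and Slc1a2 (range 0.66, peak CT10.2, adjusted p = 2.91e-06) had peaks close to it. Slc1a4 peaked near the end of the subjective night, at CT23.0, with a range of 1.45 (adjusted p = 2.98e-06), and Slc36a1 at CT22.1 with a range of 0.42 (adjusted p = 0.000165). Slc6a4 lost its call without the second female control library of CT8, with a range of 1.04 before and 0.89 after (adjusted p = 0.0853), and Slc1a5, Slc7a1 and Slc38a6 then passed. CT12 to CT24 is the subjective night, when mice do most of their feeding.

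**Figure D4:**
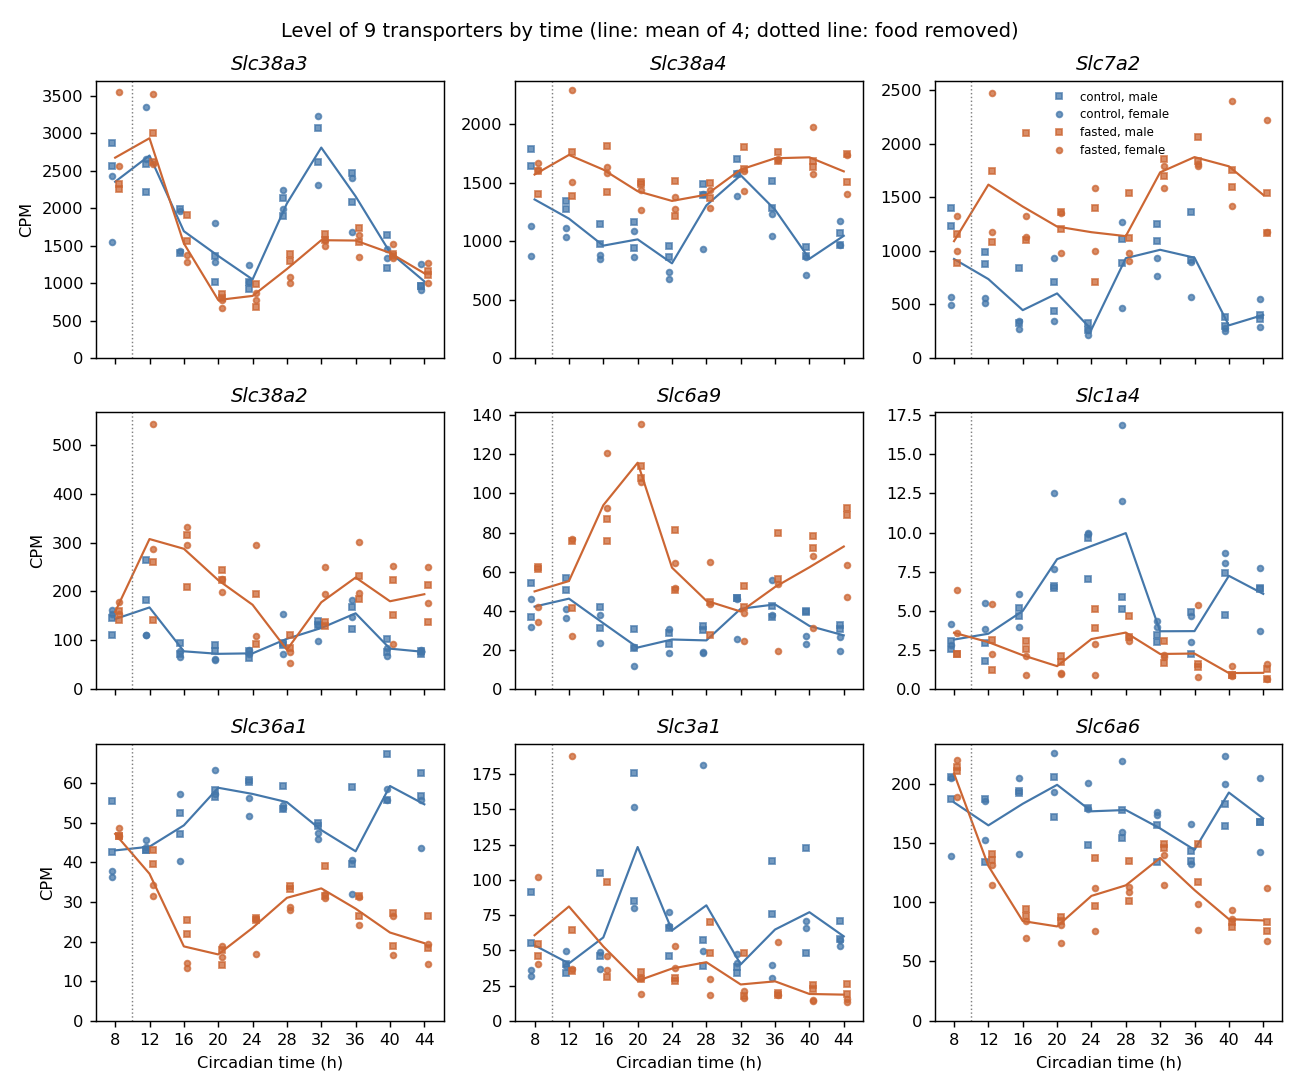
Level in CPM by circadian time in h for 9 transporters, with each library as a point (squares males, circles females; blue control, orange fasted), the mean of 4 as a line and food removal at CT10 as a dotted line. Slc7a2 and Slc38a4 stay up in fasted mice while control levels dip, Slc6a9 peaks near CT20 in fasted mice, and Slc36a1 and Slc6a6 dip in fasted mice near CT20 and again at CT40 to CT44.

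In fasted mice from CT12 to CT44, 22 of 37 had a 24 h rhythm beside a linear change over time (47.1% of all genes tested). Both treatments had a called rhythm for 14 transporters, which is 14 of the 21 called in controls and 14 of the 22 called in fasted mice. Neither this overlap nor the peak times above were counted over all genes, so neither can be read as particular to the transporters. The rhythm itself differed between treatments for 16 transporters (23.2% of all genes tested). Slc36a1 had the smallest p for that difference (adjusted p = 7.38e-09): controls had a range of 0.42 that peaked at CT22.1, and fasted mice a range of 1.02 that peaked at CT7.8. For Slc6a9 (adjusted p = 5.27e-07) the peak was at CT10.9 in controls and CT19.2 in fasted mice. Slc6a6 (adjusted p = 2.33e-06) had no called rhythm in controls and a range of 0.76 with a peak at CT7.3 in fasted mice, and Slc1a2 (adjusted p = 3.39e-05) peaked at CT10.2 and CT15.6. Slc38a3 kept a range of 1.34 with a peak at CT11.2 in fasted mice, against CT9.3 in controls (adjusted p of the difference = 0.0115).

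The fitted maximum of the difference, fasted minus control, lay in 2 separate ranges of time among these 16, and these went largely with the direction of the mean effect. For a member that fell, this maximum is where the fitted fall was smallest, and its largest fall lies at the opposite phase. The maximum lay from CT16 to CT22 for all 7 called risers and from CT4 to CT10 for 6 of 7 called fallers. This split was not counted over all genes. Both the maximum and the direction come from the same libraries. The series covers the phases of CT12 to CT20 again at CT36 to CT44, and does not repeat those of CT24 to CT32. The mean effect therefore weighs the former phases more, so the split and the direction are not independent. By member, the maximum lay from CT16.2 to CT21.0 for 8 of the 16, Slc1a2, Slc6a9, Slc6a16, Slc7a2, Slc38a2, Slc38a3, Slc38a4 and Slc43a3. It lay from CT4.9 to CT12.0 for the other 8, Slc1a4, Slc1a5, Slc6a6, Slc6a13, Slc7a1, Slc7a8, Slc36a1 and Slc38a7. With 9 times after food removal the series covers less than 2 full cycles, so the repeat of a phase was seen at most once.

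The fourth comparison asked whether males and females differed. In controls, 22 of 37 transporters differed between the sexes (39.2% of all genes tested), 14 higher in females and 8 higher in males. Among all genes that passed this test, 4364 were higher in females and 3948 in males. The smallest p was that of Slc3a2, with a log2 difference, female minus male, of 0.39 (adjusted p = 2.08e-09). Its control libraries of CT12 to CT44 had a lowest, median and highest value of 27.5, 31.97 and 37.7 CPM in males and of 36.2, 41.6 and 47.3 CPM in females, so the sexes overlapped only between 36.2 and 37.7 CPM. Slc43a2 was higher in females by 0.31 (adjusted p = 5.33e-08), and Slc38a10 was lower in females by a log2 of -0.21 (adjusted p = 5.36e-07). Slc6a16 was lower in females, with a log2 difference of -1.41 (adjusted p = 3.12e-06) and medians of 0.471 CPM in females and 1.07 CPM in males. The calls of Slc7a4 (-0.42) and Slc7a5 (0.34) were lost without the second female control library of CT8, at -0.38 (adjusted p = 0.0606) and 0.21 (adjusted p = 0.190).

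Of the 29 transporters with a mean effect of fasting, 24 (82.8%) had an effect of larger size in females than in males, against 69.9% of all genes that passed for the mean effect. The test of the difference between the sexes passed for 7 of 37 (12.4% of all genes tested). Slc36a4 had a log2 fasting effect of -0.03 in males and 0.37 in females, a difference of 0.40 (adjusted p = 0.00406), with control and fasted medians of 11.7 and 11.3 CPM in males and 12.3 and 14.5 CPM in females. Slc6a13 fell by 0.33 in males and by 0.65 in females (adjusted p of the difference = 0.0201). The differences, female minus male, were 0.22 for Slc38a9 (adjusted p = 0.00727) and -0.24 for Slc38a7 (adjusted p = 0.0247). The other 3 were Slc6a8 at 0.53, Slc6a6 at -0.30 and Slc6a12 at -0.25. Without the second female fasted library of CT40 the difference was 0.44 for Slc6a8 (adjusted p = 0.0546) and -0.25 for Slc6a12 (adjusted p = 0.0552), and neither passed with limma (adjusted p = 0.0563 and 0.0558). With DESeq2 size factors Slc6a6 (adjusted p = 0.0503) and Slc6a12 (adjusted p = 0.0529) did not pass. None of the 7 passed when either male replicate was left out, which leaves 1 male per treatment and time.

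**Figure D5:**
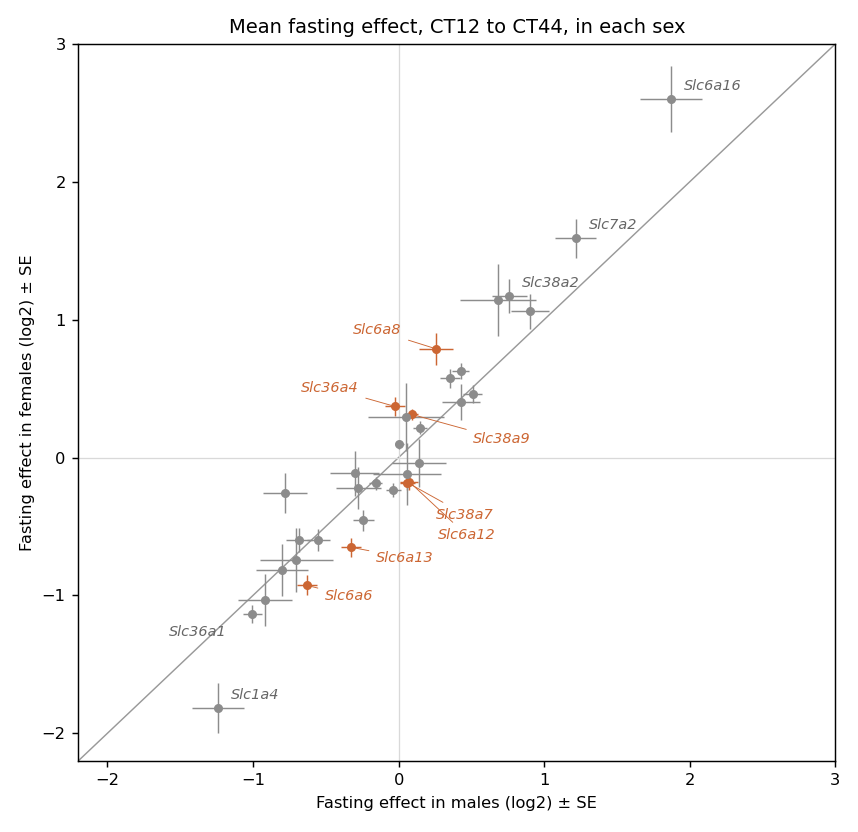
Mean log2 fasting effect over CT12 to CT44 in females against that in males, with bars of 1 SE and the line of equal effects; Slc6a21, Slc6a19 and Slc7a15, which have few counts, are left out. The 7 orange points passed the test of the sex difference, among them Slc36a4 at -0.03 in males and 0.37 in females and Slc6a13 at -0.33 and -0.65.

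The fifth comparison asked whether fasting changed which exon bins of a transporter were used. The exon table was tested for 13889 genes, with at least 2 tested bins for 32 of the 37 transporters, and 8 passed (14.3% of all genes tested). Bins carry a number and no coordinates, so where they lie in a gene was not determined. Slc38a4 had the smallest p (adjusted p = 2.86e-59), with 3 of 24 bins used more and 1 used less in fasted mice. Bin 21 held 0.104% ± 0.0529 of the gene's counts in control and 0.240% ± 0.122 in fasted libraries (SD, n = 36), and bin 22, used less, went from 2.37% ± 0.177 to 1.98% ± 0.202.

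Slc38a3 (adjusted p = 3.67e-15) had 4 bins used more and 8 used less of 51. The smallest p were those of bins 46 and 45, whose fasted shares had an SD above their mean. Bin 46 held 0.0323% ± 0.0175 in control and 0.0655% ± 0.0789 in fasted libraries (highest 0.454%) and bin 45 0.0464% ± 0.0203 and 0.0902% ± 0.110 (highest 0.639%). Bin 12, used less, held 0.258% ± 0.0940 in control and 0.196% ± 0.0678 in fasted libraries. For Slc6a6 (adjusted p = 4.65e-14) bin 18 held 0.281% ± 0.0870 in control and 0.560% ± 0.278 in fasted libraries, on means of 28.9 and 31.1 counts, so the count of that bin stayed near its control level while the gene as a whole fell. For Slc3a2 (adjusted p = 8.25e-07) bin 26 held 1.38% ± 0.359 and 0.978% ± 0.359. The remaining 4 were Slc38a9, Slc1a2, Slc43a3 and Slc43a2, with adjusted p from 0.000476 to 0.0287. In each of these 4 the leading bin held under 4% of the gene's counts.

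Other genes of amino acid handling were described by lists, as counts and medians without a test of the list. Over all genes tested, 29.5% rose and 32.9% fell. Of 12 other amino acid transporters and related genes, 8 were tested, 6 rose and none fell, with a median log2 difference of 0.28. Slc16a10, an aromatic amino acid carrier, rose by 0.66 and Sfxn1, the mitochondrial serine carrier, by 0.39. The 6 that rose include Slc7a6os, at 0.29, which is not a transporter. The ATF4 pathway answers to amino acid shortage and is known to drive Slc38a2 and Slc7a5 among others. Of 19 genes of this pathway, 7 rose and 8 fell, with a median of -0.20. Sesn2 rose by 1.61, Trib3 by 1.60, Cebpb by 1.09 and Atf5 by 0.83. These were named for having the smallest p, and all of them rose, so they do not show the direction of the list. Of 24 genes that sense amino acids upstream of mTORC1, 7 rose and 11 fell, with a median of -0.02: Fnip1 rose by 0.59, and Lamtor1, Depdc5 and Sesn3 fell by 0.36, 0.37 and 0.52. Of 14 enzymes of glutamine, glutamate, alanine and serine metabolism, 7 rose and 5 fell, with a median of 0.02; Got1 rose by 1.72, Sdsl by 1.47, Gpt2 by 0.93 and Oat by 0.73.

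Markers of other liver cells moved too. Of 9 Kupffer cell markers 8 fell and none rose, with a median of -0.32, and their summed level had a lowest, median and highest value of 286, 442 and 955 CPM in control and 219, 343 and 620 CPM in fasted libraries. Slc7a7, which macrophages express, fell by 0.57. Of 6 cholangiocyte markers 5 fell, with a median of -0.61 and sums of 24.7 to 66.3 CPM in control and 6.78 to 50.7 CPM in fasted libraries. Whether these cells bear on the fall of Slc7a7 or of other light chains was not tested. Hepatocyte markers went both ways, with 5 of 8 up and 3 down, as did sinusoidal endothelial markers, with 4 of 7 up and 2 down, and stellate cell markers, with 2 of 6 up and 3 down. Lymphocyte markers (3 of 7), erythroid markers (2 of 5) and pancreatic acinar markers (1 of 5) fell or did not pass, and none of 4 neutrophil markers passed. Of 2 tested adipocyte markers 1 passed, Cidec, a lipid droplet gene that fasted hepatocytes also express, with a rise of 5.62; Adipoq did not, and the sum of both was 0.0862 to 4.19 CPM in control and 3.03 to 281 CPM in fasted libraries.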

How the data were processed

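Poly(A) RNA of 80 mouse livers was sequenced with a stranded kit. The authors deposited raw counts per gene and raw counts per exon bin, with 1 column per library, and a table of the gene counts divided by a factor per library, which was not used. The submitters' processing notes name Trimmomatic, HISAT2, DESeq2 and GRCm39, without versions; the counting program was not given in the sources used here. Titles set the groups: the detailed labels name another sex in 40 libraries and another treatment in 40, and sex-linked genes matched the titled sex in all 80; for treatment, 4 genes fixed as checks (Srebf1, Fasn, Pck1 and Fgf21) moved as the titles say, as the report gives.

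Counts were fitted in R 4.3.3 with edgeR 4.0.16 (filterByExpr, TMM, quasi-likelihood F-test, group means by treatment, time and sex), with an adjusted p under 0.05 as the threshold and Benjamini-Hochberg adjustment over all genes tested. CPM use TMM-scaled library sizes. Rhythms were fitted as a cosine and a sine of 24 h. Exon bins were tested with diffSpliceDGE and Simes p-values per gene; rows naming no exon, 8.28% to 25.9% of a column's counts, were left out. In the exon table, 77 of 80 columns were most like the gene-table library of the same name and 3 columns of fasted CT40 were not, so fasted CT40 entered as 1 group of 4 without sex. Each test was tried on simulated counts with known changes.

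The review that reported the data gives no methods for them. Nothing in the labels says whether mice of 1 cage of 4 shared a group. The members and gene lists were chosen with earlier results of these data known. Members among the 6 largest mean rises or 6 largest mean falls, at a mean of at least 1 CPM, were given values by time. So were those with the 5 highest levels per kilobase or the 4 smallest p of a comparison, and 15 carriers fixed with the design. Slc43a3 at CT20 and Slc7a6 at CT8, like Slc6a21, were given values outside these rules. From each gene list at most 4 genes were named, those with the smallest p. Alternatives were DESeq2 1.42.0, limma 3.58.1, other scalings, filters and thresholds, the CT8 difference subtracted, each sex alone, a replicate block and each replicate left out; leaving out the 2 libraries that stood apart was added after seeing the data. Gene lengths and neighbours come from GENCODE M21 on GRCm38, matched by gene ID for all 37 members. Counts bound the precision of the members with few counts. The p-values set a difference of means against the spread between libraries, for which all groups share an estimate.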

Additional observations from a re-analysis of the deposited data

Results flagged for a closer look

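In 240 groups of 4 libraries, covering the 12 members with the largest mean changes, 18 groups (7.5%) held a library whose gap to the nearest of the other 3 passed Dixon's 95% critical value as a share of the group's range, where chance gives about 5%. Of these 18, 3 concern the second female control library of CT32. It read 0.966 CPM for Slc6a16 against 2.37 to 2.73 in the others, 25.8 CPM for Slc6a9 against 46.0 to 46.4, and 97.9 CPM for Slc38a2 against 132 to 139, and was low for all 3. The second female fasted library of CT40 was low for Slc6a9, at 31.1 CPM against 68.0 to 78.2, and for Slc7a7, at 1.55 CPM against 2.42 to 2.60. The second female fasted library of CT36 was high for Slc3a1, at 56.2 CPM against 18.0 to 19.6, and for Slc7a8, at 8.87 CPM against 3.67 to 4.26.

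The other 11 gaps came from 11 different libraries. For Slc36a1 they were 48.7 CPM at fasted CT8, 16.8 CPM at fasted CT24 and 39.1 CPM at fasted CT32. For Slc7a8 they were 4.96 CPM at control CT36, 10.5 CPM at control CT44 and 3.97 CPM at fasted CT44. Slc7a2 read 2064 CPM in 1 library of fasted CT36 against 1793 to 1835 in the others. Slc38a4 read 937.5 CPM at control CT28 against 1394 to 1491 in the others. Slc6a8 read 4.52 CPM at fasted CT8, Slc1a4 7.05 CPM at control CT24 and Slc6a6 140.4 CPM at control CT16.

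The fasting effect differed between the sexes by its own test for 7 members. The log2 effect in females minus that in males was 0.53 for Slc6a8, 0.40 for Slc36a4, 0.22 for Slc38a9, -0.24 for Slc38a7, -0.25 for Slc6a12, -0.30 for Slc6a6 and -0.32 for Slc6a13. The adjusted p ranged from 0.00406 to 0.0453 in edgeR's quasi-likelihood test.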

How the results depend on the processing

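The number of members changed over CT12 to CT44, 29, ranged from 27 to 31 with single replicates left out (14 to 15 that rose, 13 to 16 that fell). Tested against a change of 1.5 times it was 9 (5 rose, 4 fell), and with the CT8 difference subtracted, which carries the spread of the CT8 libraries, it was 15 (9 rose, 6 fell). Under that subtraction the log2 differences of Slc1a5 (0.78), Slc38a1 (1.27) and Slc7a5 (0.19) turned positive. For these members the second female control library of CT8 read 25.7, 44.4 and 16.8 CPM. The other control libraries of CT8 read 2.49 to 3.28, 2.07 to 3.30 and 2.97 to 4.98 CPM, so the subtracted values carry the high readings of that library. In males alone the log2 difference of Slc36a4 was -0.023. At CT8, limma gave 0 members, where edgeR gave 3. Without the second female control library of CT8 the count there was 0, and without the second female fasted library of CT40 the count at CT32 was 10 in place of 6.

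Leaving out a replicate leaves 1 library per treatment and time for that sex, which is then taken to vary like the rest. The counts then ranged from 0 to 6 at CT8, 0 to 3 at CT12, 7 to 13 at CT16, 15 to 24 at CT20, 6 to 18 at CT24, 5 to 15 at CT28, 2 to 10 at CT32, 3 to 15 at CT36, 15 to 23 at CT40 and 14 to 22 at CT44. They ranged from 0 to 8 for the sex difference of the fasting effect, 13 to 23 for sex in controls, 17 to 23 for the control rhythm, 14 to 25 for the fasted rhythm, 12 to 17 for the rhythm difference and 4 to 8 for exon usage. Exon usage with at least 10 counts in every library gave 5 members.

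Replicate numbers did not pair the libraries: 1 of 20 pairs had a correlation of deviations above 0.1, over a range of -0.056 to 0.249. With the replicate block 29 members passed for the mean effect. Low counts limit Slc6a21, Slc6a19, Slc7a15, Slc6a4 and Slc1a3.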
